A study of Homo sapiens with 6 samples.

Results

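The inhibitor AI-10-49 separates RUNX1 from CBFβ-SMMHC, the fusion protein that the chromosome rearrangement inv(16) makes in some myeloid leukaemias. Cells of ME-1, a human leukaemia line with inv(16), were exposed to 1 µM of the inhibitor for 6 h, and control cells to the vehicle DMSO for the same time. Each treatment had 3 independent experiments, and every library came from the same line, so the DMSO cells carry the fusion too. RNA abundance was given as FPKM, fragments scaled to transcript length and library size, in a table of 6339 rows that is a selected set of genes. The results below concern 7 genes of that table that encode membrane proteins best known outside blood: LRFN4, RTN4R, NRXN2, CLDN5, TMEM121, PAQR4 and ITPRIPL1. They were chosen by symbol, and because they were among the genes with the largest decreases between DMSO and AI-10-49. Their difference between the treatments is therefore a description and was not tested.

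Synapses are held together by adhesion proteins that reach across the cleft. Neurexins on the sending side bind neuroligins and leucine-rich repeat proteins on the receiving side, and members of the LRFN family bind receptor phosphatases across the cleft. The Nogo receptor RTN4R, held on the neuron surface by a lipid anchor, receives myelin signals that limit axon growth. Claudins seal tight junctions between neighbouring cells, and CLDN5 is the main claudin of the endothelium of the blood-brain barrier. PAQR proteins are membrane-spanning relatives of the adiponectin receptors, which cleave ceramide, and ITPRIPL1 is a membrane-bound relative of a protein that binds inositol trisphosphate receptors. These are roles known from other tissues, and the RNA values here say nothing of protein at the surface of ME-1 cells.

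All 7 genes had a row of their own, and each had a mean above 1 FPKM in both groups. In DMSO they fell into a higher and a lower set. LRFN4, NRXN2 and RTN4R stood at 35.3 to 42.2 FPKM on average, above the 75th percentile of the tested rows, 32.4 FPKM. PAQR4, TMEM121, ITPRIPL1 and CLDN5 stood at 10.6 to 15.9 FPKM, around the median of 14.8 FPKM. With AI-10-49 the same 2 sets remained, at 6.47 to 7.21 FPKM and at 1.32 to 2.45 FPKM. In all 7 genes every AI-10-49 library lay below every DMSO library. Over the tested rows, 51.2% had groups apart in that direction, and nothing is read from the 7, which were chosen on this contrast. The lowest DMSO library was between 4.92 times (RTN4R) and 6.27 times (TMEM121) the highest AI-10-49 library. Because the RNA came from whole cultures, fewer cells with a transcript and less of it per cell cannot be told apart.

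**Figure D1:**
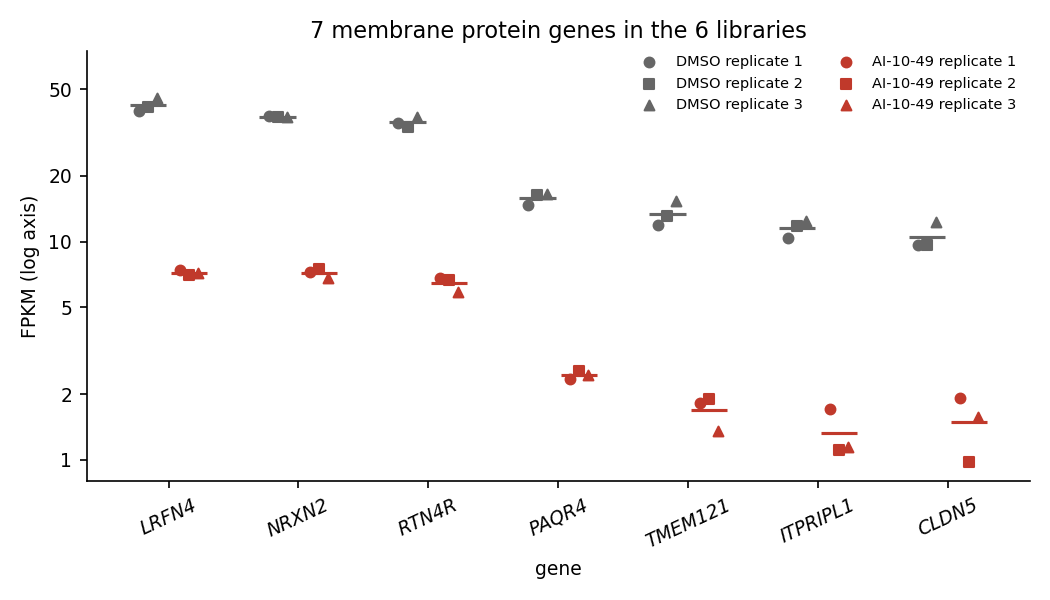
FPKM (log axis) of the 7 genes in the 3 DMSO libraries (grey) and the 3 AI-10-49 libraries (red), with marker shape for the replicate and horizontal lines for group means, ordered by the DMSO mean. LRFN4, NRXN2 and RTN4R form a higher set in both treatments, and no gene has overlapping groups.

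The 3 genes known from synapses and axons had the higher levels. LRFN4, which encodes a leucine-rich adhesion protein of the synapse, read 39.7, 41.5 and 45.5 FPKM in DMSO replicates 1, 2 and 3 and 7.38, 7.06 and 7.18 FPKM in the AI-10-49 replicates. Its AI-10-49 libraries were the tighter group, with a coefficient of variation (SD as a percentage of the mean) of 2.27% against 7.09% in DMSO. Its mean was 42.2 ± 3.0 FPKM (SD, n = 3) in DMSO and 7.21 ± 0.16 FPKM (SD, n = 3) after the inhibitor, a 5.86-fold difference. On the log2(FPKM + 1) scale the change was -2.40 ± 0.07 (SE).

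NRXN2, which encodes a neurexin, read 37.6, 37.2 and 37.2 FPKM in the DMSO libraries and 7.22, 7.51 and 6.80 FPKM in the AI-10-49 libraries. The DMSO values were the closest of any of the 7 genes, with a coefficient of variation of 0.617%. The mean went from 37.3 ± 0.23 to 7.18 ± 0.36 FPKM (SD, n = 3 in each group), 5.20-fold lower, the smallest ratio of the 7. Its log2 change was -2.23 ± 0.06 (SE). NRXN2 makes long and short forms from separate start sites, and a value per gene does not tell them apart.

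RTN4R, the Nogo receptor gene, read 35.1, 33.6 and 37.2 FPKM in DMSO and 6.83, 6.67 and 5.91 FPKM with AI-10-49. The means were 35.3 ± 1.77 and 6.47 ± 0.49 FPKM (SD, n = 3 each), a 5.46-fold difference and a log2 change of -2.28 ± 0.07 (SE). In DMSO its mean differed from that of NRXN2 by little more than its own SD. With AI-10-49 the libraries of LRFN4 and NRXN2 overlapped, and the highest RTN4R library overlapped those of NRXN2.

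CLDN5, the endothelial tight junction gene, read 9.63, 9.69 and 12.3 FPKM in DMSO and 1.92, 0.973 and 1.56 FPKM with AI-10-49. It was the most variable of the 7, with a coefficient of variation of 14.6% in DMSO and 32.1% with AI-10-49. Its mean was 10.6 ± 1.54 FPKM in DMSO and 1.48 ± 0.48 FPKM with AI-10-49 (SD, n = 3 each), 7.11-fold lower, with a log2 change of -2.23 ± 0.13 (SE). AI-10-49 replicate 2 stood at 0.559 times the mean of the other AI-10-49 libraries, and without that library the log2 change was -2.07.

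Of PAQR4, TMEM121 and ITPRIPL1, PAQR4 had the smallest coefficient of variation in both groups, 6.09% in DMSO and 3.99% with AI-10-49. It read 14.8, 16.3 and 16.6 FPKM in DMSO and 2.35, 2.55 and 2.46 FPKM with AI-10-49. The means were 15.9 ± 0.97 and 2.45 ± 0.10 FPKM (SD, n = 3 each), 6.48-fold lower, with a log2 change of -2.29 ± 0.07 (SE). All 3 AI-10-49 libraries of PAQR4 lay within 0.2 FPKM of each other.

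TMEM121, which encodes a transmembrane protein, read 11.9, 13.1 and 15.3 FPKM in DMSO and 1.83, 1.89 and 1.36 FPKM with AI-10-49. Its mean was 13.4 ± 1.76 FPKM in DMSO and 1.69 ± 0.29 FPKM with AI-10-49 (SD, n = 3 each), 7.93-fold lower, with a log2 change of -2.42 ± 0.10 (SE). ITPRIPL1 read 10.4, 11.8 and 12.4 FPKM in DMSO and 1.70, 1.11 and 1.15 FPKM with AI-10-49. Its means of 11.5 ± 1.07 and 1.32 ± 0.33 FPKM (SD, n = 3 each) differed 8.73-fold, the largest ratio of the 7, with a log2 change of -2.44 ± 0.10 (SE). The DMSO libraries of PAQR4 and TMEM121, of TMEM121 and ITPRIPL1, and of ITPRIPL1 and CLDN5 overlapped, so neighbours in the order of these 4 genes in DMSO are not resolved, while every DMSO library of PAQR4 lay above every DMSO library of ITPRIPL1 and CLDN5. With AI-10-49, PAQR4 lay above the other 3 in every library, and those 3 overlapped.

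Between 11.5% (ITPRIPL1) and 19.2% (NRXN2) of the DMSO mean was left with AI-10-49. Pairing every AI-10-49 library with every DMSO library gave 8.95% to 16.5% for ITPRIPL1, 8.86% to 15.9% for TMEM121, 7.89% to 19.9% for CLDN5 and 18.1% to 20.2% for NRXN2. The ranges of ITPRIPL1 and TMEM121 lay below that of NRXN2, while the range of CLDN5 spanned most of the others. The order depended on the scale. On the log2(FPKM + 1) scale, the added 1 shrinks the changes of low genes. There CLDN5 and NRXN2 had the smallest changes of the 7, both -2.23 and closer to each other than either SE. As a ratio of means CLDN5 came next after ITPRIPL1 and TMEM121, and NRXN2 was last. Among the 6230 rows tested, the 7 held ranks between 4 (ITPRIPL1) and 13 (CLDN5) of the log2 decreases. By ratio of means they held ranks between 7 (ITPRIPL1) and 35 (NRXN2). A log2 change of -2 or lower was reached by 30 rows, or 0.482% of those tested, and the 7 are among them.

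**Figure D2:**
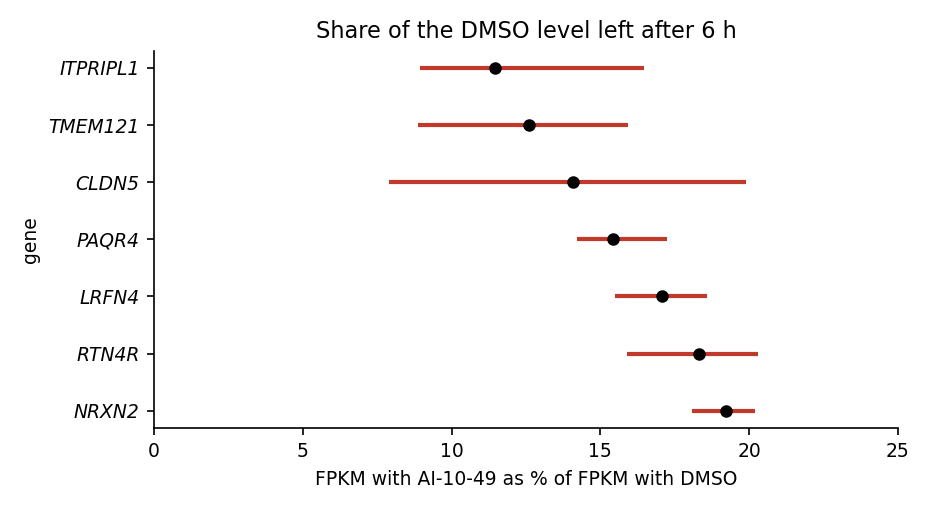
Mean FPKM with AI-10-49 as a percentage of the mean with DMSO (points) for each of the 7 genes, with the lowest and highest value over all pairs of an AI-10-49 and a DMSO library (lines). ITPRIPL1 has 11.5% left and NRXN2 19.2%, and the line of CLDN5 is the widest.

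DMSO replicate 3 gave the highest DMSO reading in 6 of the 7 genes, all but NRXN2. Over the tested rows 48.8% had their highest DMSO reading in that library. AI-10-49 replicate 2 stands apart in the table as a whole. In the 294 rows of at least 100 FPKM in the other AI-10-49 libraries, its median ratio to their mean was 0.502, and in the 2175 rows between 1 and 10 FPKM it was 1.11. With AI-10-49 the 7 genes lay in or near that lower range, and their ratios ran from 0.559 (CLDN5) and 0.780 (ITPRIPL1) through 0.970 (LRFN4) to 1.19 (TMEM121). Leaving it out, the median log2 change of the 7 was -2.31, against -2.29 with all libraries. The median over all tested rows was -0.28.

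RefSeq (GRCh38.p14) start-site windows, 250 bases before to 50 after a start, were found for 5 of the 7 genes: LRFN4, RTN4R, TMEM121, PAQR4 and ITPRIPL1. The deposited values were made on hg19 and do not show which start was used. The part before the start is printed for 3 of them: LRFN4, the gene with the highest level; PAQR4, whose exons overlap a neighbour; and ITPRIPL1, the gene with the least left, at the first of its 4 listed starts. Capitals mark matches on either strand to GGGCGG (a GC box, bound by SP factors), CACGTG (an E-box, bound by MYC and its relatives), TGTGGT (the RUNX core) or TGANTCA (AP-1), where N is any base.
LRFN4 (chr11:66856814-66857063, forward strand): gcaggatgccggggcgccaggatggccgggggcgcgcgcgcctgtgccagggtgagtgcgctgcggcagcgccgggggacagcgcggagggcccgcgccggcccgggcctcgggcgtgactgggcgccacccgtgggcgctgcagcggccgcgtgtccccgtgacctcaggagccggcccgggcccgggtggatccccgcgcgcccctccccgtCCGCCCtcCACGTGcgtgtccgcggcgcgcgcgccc
PAQR4 (chr16:2969098-2969347, forward strand): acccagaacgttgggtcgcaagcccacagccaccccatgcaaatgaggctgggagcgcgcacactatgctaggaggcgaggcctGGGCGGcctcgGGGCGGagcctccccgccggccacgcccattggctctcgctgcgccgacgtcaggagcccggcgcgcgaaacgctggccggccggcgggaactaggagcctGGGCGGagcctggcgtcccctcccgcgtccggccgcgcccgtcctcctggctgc
ITPRIPL1 (chr2:96325067-96325316, forward strand): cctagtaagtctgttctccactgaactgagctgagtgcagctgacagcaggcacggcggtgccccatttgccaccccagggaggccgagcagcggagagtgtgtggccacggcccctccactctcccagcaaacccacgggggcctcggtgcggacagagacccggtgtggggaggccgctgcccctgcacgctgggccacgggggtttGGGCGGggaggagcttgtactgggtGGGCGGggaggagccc
The E-box letters stood 28 bases before the LRFN4 start, next to a GC box at 36 bases, and they were in none of the other 7 windows of the 5 genes. They were found in 10.3% of the windows of genes with a tested row and in 7.26% of all 35116 windows. GC box letters were in 5 of the 8 windows of the 5 genes (62.5%), and in 1 of the 4 windows of ITPRIPL1, against 66.0% of windows of tested rows and 45.0% of all windows. These shares count windows, not genes. The ITPRIPL1 windows without GC box letters overlap almost wholly, and each of the 5 genes had a window with them. None of the 8 windows held the RUNX core or the AP-1 letters, which were in 10.3% and 4.80% of windows of tested rows. The motifs did not overlap each other in the windows printed. A match describes these letters only, and a window without a match says nothing of the factor.

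The windows were rich in G and C, with 83.3% in LRFN4, 82.0% in RTN4R, 76.7% in TMEM121 and 72.0% in the first ITPRIPL1 window, and PAQR4 lay between the last 2. The median over windows of tested rows was 64.7%, with a 75th percentile of 71.7%. The other ITPRIPL1 windows had 56.3% to 57.0%. The transcripts themselves, taken as the longest coding transcript in GENCODE 29, showed the same in 6 of the 7 genes. TMEM121 had 70.4% G and C, RTN4R 69.5%, LRFN4 68.3%, PAQR4 64.6%, NRXN2 64.5% and CLDN5 64.2%, all above the 75th percentile of 57.2% over 5356 matched rows. ITPRIPL1, at 48.7%, lay near the median of 48.4%. G and C content moved with the change over the whole table. In the 1339 rows richest in G and C (above the 75th percentile), 72.8% were lower with AI-10-49 and the median log2 change was -0.47. In the 1339 poorest 26.8% were lower and the median was 0.42. Without AI-10-49 replicate 2 these medians were -0.44 and 0.43. Of the 24 matched rows with a log2 change of -2 or lower, 41.7% lay above the 75th percentile of G and C. Those 24 rows include the 7 genes, and the 6 genes above that percentile make up most of the 41.7%. The share therefore does not describe the other rows with large decreases. These are descriptions across genes, which are not independent, and the part of base composition in the values of the 7 genes was not tested.

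**Figure D3:**
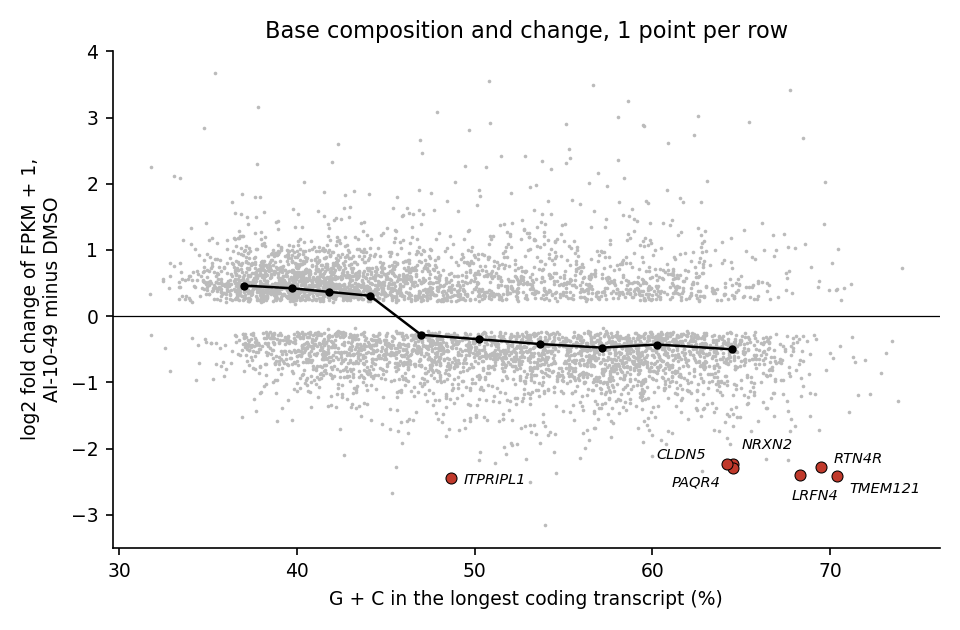
Log2 fold change against the share of G and C in the longest coding transcript, 1 grey point per row, for 5356 matched rows, with medians of 10 equal groups of rows (black line) and the 7 genes in red. Of the 7 genes, 6 lie to the right of 64% and ITPRIPL1 lies near the middle at 48.7%; the empty band around 0 reflects the selected rows of the table.

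The 7 genes differed in transcript structure. NRXN2 had the longest transcript, 6621 bases in 23 exons, and TMEM121 the shortest, 1532 bases in 2 exons. The ITPRIPL1 transcript was 1 exon, those of LRFN4, RTN4R, CLDN5 and TMEM121 had 2, and that of PAQR4 had 3, against a median of 9 exons over matched rows. Lengths from 2157 bases (RTN4R) to 4295 bases (ITPRIPL1) covered the other 5 genes, and the median over matched rows was 3396 bases. Exons of a gene on the opposite strand overlapped 17.2% of the exon bases of PAQR4 (PKMYT1) and 2.22% of those of LRFN4 (PC). Whether fragments were counted by strand was not stated in the sources used here, so reads in those stretches cannot be assigned to either gene.

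Genes close to the 7 were looked up in RefSeq for their order only, taking overlapping coding genes and the 2 nearest on each side. LRFN4 and NRXN2 lie on chromosome 11 and RTN4R and CLDN5 on chromosome 22, without being next to each other. Of 28 neighbours, 8 had a tested row, and all 8 fell by limma with Benjamini-Hochberg adjustment over all tested rows at 0.05. That call was made for 49.1% of all tested rows in the same direction. In either direction 95.3% passed, so a neighbour with a row was likely to be called. Their log2 changes ran from -0.88 to -0.37, with a median of -0.62. The 7 genes were chosen for large decreases, so a comparison of size with their neighbours was fixed in advance and nothing is read from it. Around PAQR4, KREMEN2, which encodes a receptor for Dickkopf inhibitors of Wnt signalling, fell from 4.64 ± 0.08 to 2.07 ± 0.19 FPKM (SD, n = 3 each; log2 change -0.88 ± 0.08 SE, limma adjusted p = 6.83e-07). PKMYT1, which encodes an inhibitory kinase of mitotic entry, fell from 26.3 ± 0.32 to 13.99 ± 0.73 FPKM (SD, n = 3 each; log2 change -0.86 ± 0.06 SE, limma adjusted p = 6.67e-08). Its overlap with PAQR4 applies to both values. Next to TMEM121, CRIP1 changed by -0.66 and C14orf80 by -0.45. Next to NRXN2, RASGRP2, a Ras exchange factor gene, changed by -0.65. Next to RTN4R, ZDHHC8 changed by -0.59 and DGCR6L by -0.37, and the libraries of DGCR6L overlapped between the groups. Next to ITPRIPL1, NCAPH, a condensin subunit gene, changed by -0.40. No neighbour of LRFN4 or CLDN5 had a tested row.

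Relatives of the synaptic and axonal genes were measured in small numbers. Of 60 listed leucine-rich synaptic adhesion genes and neurexin partners, 5 were measured, and 4 fell and 1 rose, with a median log2 change of -0.71. Of all tested rows 95.3% passed in either direction, 49.1% lower and 46.2% higher. The fallers included both measured relatives of LRFN4. LRFN1 read 4.67, 4.59 and 3.86 FPKM in DMSO and 0.955, 1.18 and 1.05 FPKM with AI-10-49, a 4.13-fold difference of means (log2 change -1.38 ± 0.10 SE, limma adjusted p = 4.56e-08). LRFN3 fell from 2.70 ± 0.20 to 0.951 ± 0.11 FPKM (SD, n = 3 each; log2 change -0.92 ± 0.10 SE, limma adjusted p = 2.11e-06). Rows were tested if either group mean reached 1 FPKM. LRFN3 was below that with AI-10-49 and was tested only through DMSO, where it was high, so nothing is read from its direction. DAG1, which encodes dystroglycan, a neurexin ligand, changed by -0.71, and LIN7C, a scaffold gene, rose by 0.66. Levels of LRFN1 and LRFN3 in DMSO were far below the 42.2 FPKM of LRFN4. Whether the 3 LRFN genes changed by different amounts was not tested.

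Of 28 listed genes of the Nogo receptor pathway, 6 were measured, and 4 fell and 2 rose (median log2 change -0.63). Among all tested rows 95.3% passed, 49.1% lower and 46.2% higher, so a call for each of the 6 says little of the pathway. LINGO3, a relative of the RTN4R co-receptor LINGO1, fell from 5.41 ± 0.57 to 2.66 ± 0.31 FPKM (SD, n = 3 each; log2 change -0.81). BAI1, which encodes an adhesion receptor that binds RTN4R, fell from 38.9 ± 3.84 to 21.1 ± 2.21 FPKM (SD, n = 3 each; log2 change -0.86). KIDINS220, a scaffold of neurotrophin receptors, rose by 0.61. The ligand gene RTN4 and the co-receptor genes LINGO1, NGFR and TNFRSF19 were not analysed here.

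Junction genes moved in both directions, as did the tested rows as a whole (49.1% lower and 46.2% higher). Of 57 listed, 11 were measured: 5 fell, 4 rose and 2 did not pass, with a median log2 change of -0.34. CLDN14 moved opposite to CLDN5. It read 0.872, 0.413 and 0.649 FPKM in DMSO and 5.64, 7.03 and 6.42 FPKM with AI-10-49, which was 9.87-fold higher (log2 change 2.17 ± 0.12 SE, limma adjusted p = 4.08e-09). CLDN12 rose from 0.754 ± 0.11 to 2.13 ± 0.41 FPKM (SD, n = 3 each; log2 change 0.83). Rows were tested if either group mean reached 1 FPKM. CLDN14 and CLDN12 were below that in DMSO and were tested only through AI-10-49, where they were high. AMOTL1, among those that fell, was tested only through DMSO. The direction of these genes was favoured by the filter, and nothing is read from it. CLDN10, singled out after its values were known, fell from 13.6 ± 1.27 to 8.19 ± 0.29 FPKM (log2 change -0.67). MARVELD1, a membrane gene related to occludin, fell from 43.2 ± 0.50 to 11.04 ± 0.47 FPKM (SD, n = 3 each; log2 change -1.88 ± 0.06 SE, limma adjusted p = 8.28e-11). CSDA, a DNA-binding protein gene found at tight junctions, had a log2 change of -0.73 and did not pass (limma adjusted p = 0.116), and passed at -0.37 without AI-10-49 replicate 2. EMP1 (0.28) lost its call under 6 alternatives, which included leaving out DMSO replicate 1 or 3 or AI-10-49 replicate 2 or 3.

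Of 16 listed PAQR, ITPRIP and inositol trisphosphate receptor genes, 6 were measured, and 4 fell and 2 rose (median -0.38). Among all tested rows 95.3% passed, 49.1% lower and 46.2% higher. ITPRIPL2 fell from 13.1 ± 0.34 to 7.05 ± 0.17 FPKM (SD, n = 3 each; log2 change -0.81 ± 0.06 SE, limma adjusted p = 9.88e-08). PAQR5, a membrane progestin receptor gene, fell from 2.03 ± 0.12 to 0.872 ± 0.19 FPKM (log2 change -0.70). Its AI-10-49 mean was below 1 FPKM, so it was tested only through DMSO, where it was high, and nothing is read from its direction. The receptor genes ITPR1 and ITPR2, which encode calcium release channels, rose by 0.53 and 0.46. PAQR8 lost its call without DMSO replicate 3 or AI-10-49 replicate 1, and was named for that reason. Ceramide and sphingolipid genes, measured in 17 of 45, fell in 8 and rose in 9, with a median of 0.25. These counts were near the shares of all tested rows, so nothing particular to the list is read from them. SAMD8, a sphingomyelin synthase relative, rose by 0.96 and SGPL1, the sphingosine phosphate lyase gene, by 0.76. DEGS1, which makes ceramide, fell by 0.89 on the log2 scale. CERS2, a ceramide synthase gene, changed by -0.84 (limma adjusted p = 0.0222), and lost its call when any 1 DMSO library was left out (adjusted p of 0.0714 to 0.087). Without AI-10-49 replicate 2 its log2 change was -0.55 and it passed (limma adjusted p = 1.49e-05).

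**Figure D4:**
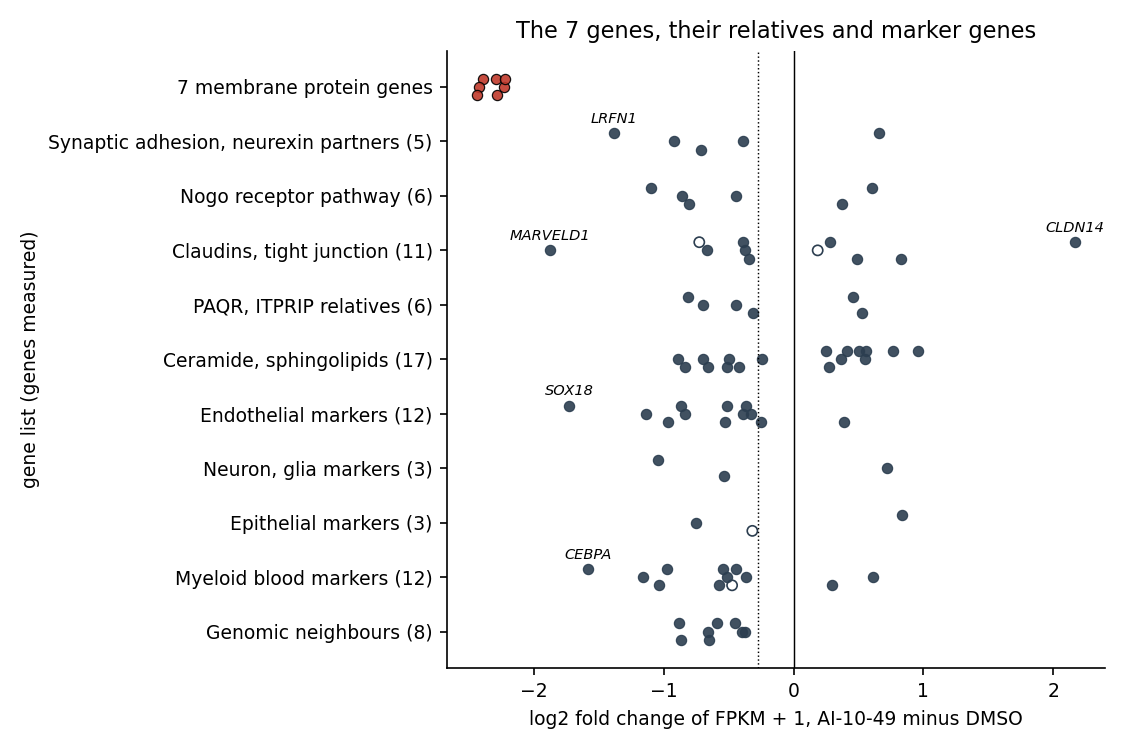
Log2 fold change of FPKM + 1 for the 7 genes (red), 9 gene lists and the genomic neighbours (dark points, 1 per measured gene; open points did not pass the test), with the median of all tested rows as a dotted line. The junction list spreads from MARVELD1 (-1.88) to CLDN14 (2.17), and no gene of the lists has a change below -1.88.

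Marker genes of the cell types in which the 7 genes are best known were counted as well. Of 27 endothelial markers, 12 were measured, of which 11 fell and 1 rose, with a median log2 change of -0.52, against 49.1% lower and 46.2% higher among all tested rows. Their summed level was 333 to 346 FPKM in the DMSO libraries and 221 to 255 FPKM with AI-10-49. The 221 FPKM was AI-10-49 replicate 2, and replicates 1 and 3 were at 255 and 253 FPKM. SOX18, an endothelial transcription factor gene, read 6.59, 7.32 and 5.997 FPKM in DMSO and 1.30, 1.51 and 1.10 FPKM with AI-10-49 (log2 change -1.73 ± 0.10 SE, limma adjusted p = 6.53e-09). TAL1, also a regulator of blood cells, changed by -1.14, FLT4 by -0.97 and ENG by -0.87. ICAM2, the gene that rose (0.38), lost its call without DMSO replicate 1 or 2 or AI-10-49 replicate 1 or 3, and was named for that reason. ESAM stood on this list and on the junction list. Each of the 12 had a mean above 1 FPKM in both groups. Only rows whose mean reached 1 FPKM in either group were tested, so this was given for the 11 that fell. CDH5, the defining cadherin of endothelium, was not analysed here.

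Of 37 neuron and glia markers, 3 were measured (median log2 change -0.53), NRGN (-1.04), OLIG1 (-0.53) and TUBB3 (0.72), with 2 that fell and 1 that rose. Their summed level was 61.5 to 70.0 FPKM in DMSO and 30.6 to 37.0 FPKM with AI-10-49, most of it NRGN. Among all tested rows 49.1% were called lower and 46.2% higher, and the epithelial counts below stand against the same shares. Of 23 epithelial markers, 3 were measured (median log2 change -0.32), with SPINT1 (-0.75) lower, KRT7 (0.84) higher and MUC1 (-0.32) not past the threshold. MUC1 passed as lower without DMSO replicate 1 (-0.48, limma adjusted p = 0.00744) or AI-10-49 replicate 3 (-0.46, adjusted p = 0.0101) and with the replicate number as a block (adjusted p = 0.00484), and was at -0.15 without DMSO replicate 2 and -0.18 without AI-10-49 replicate 2. Their sum was 6.85 to 10.1 FPKM in DMSO and 6.37 to 7.26 FPKM with AI-10-49. KRT7 had a DMSO mean below 1 FPKM and was tested only through AI-10-49, where it was high, so nothing is read from its direction. Of 30 myeloid markers, 12 were measured, and 9 fell, 2 rose and 1 did not pass, against 49.1% lower and 46.2% higher among all tested rows. Their median log2 change was -0.53, close to that of the endothelial markers. Their sum was 503 to 554 FPKM in DMSO and 279 to 395 FPKM with AI-10-49. The 279 FPKM was AI-10-49 replicate 2, which read low in high rows, and replicates 1 and 3 were at 395 and 390 FPKM. CEBPA changed by -1.58, the cytokine receptor genes CSF2RB and KIT by -1.16 and -1.04, and CD33 by -0.97. The 2 that rose were PTPRC (0.61) and FLT3 (0.29), named for that reason. PRTN3, among the 9 that fell, had an AI-10-49 mean below 1 FPKM and was tested only through DMSO. No measured gene of these lists was at 0 in any library. The part of any other cell type in the values of the 7 genes was not tested.

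The rows with profiles nearest to the mean of the 7 genes were UHRF1, UNG, HPDL, MAT2A and EMILIN1. A profile was the log2(FPKM + 1) value in each of the 6 libraries minus the mean of the DMSO libraries. Likeness was the root mean square difference over those 6 values, which was 0.0546 for UHRF1, 0.0786 for UNG, 0.085 for HPDL, 0.104 for MAT2A and 0.126 for EMILIN1. UHRF1 encodes a factor that maintains DNA methylation, and it stood at 53.3 ± 0.85 FPKM in DMSO and 9.50 ± 0.61 FPKM with AI-10-49 (SD, n = 3 each). UNG, which encodes a uracil-DNA glycosylase, stood at 68.7 ± 4.38 and 13.9 ± 0.45 FPKM. MAT2A, which encodes a synthase of S-adenosylmethionine, stood at 192 ± 8.33 and 38.8 ± 4.17 FPKM. Taken singly, LRFN4 and ITPRIPL1 were nearest to UHRF1, RTN4R and PAQR4 to UNG, NRXN2 to EMILIN1, CLDN5 to MAT2A and TMEM121 to PLD6. Among the 7 themselves the closest pair was RTN4R and NRXN2 (0.064), and the most distant was CLDN5 and TMEM121 (0.255). With 2 treatments only, likeness mostly restates a similar size of change.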

How the data were processed

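RNA-seq libraries of ME-1 cells, 3 with DMSO and 3 with AI-10-49, were grouped by the labels. The authors deposited FPKM for 6339 rows, made with Bowtie2 2.1.0, Cufflinks 2.2.0 and Cuffdiff on hg19, per the submitters' processing notes; how the rows were selected was not stated in the sources used here. Of these rows 198 name several genes. FPKM are not counts and depth is unknown, so no count model, interval or detection limit was used. Values were analysed as log2(FPKM + 1) with limma 3.58.1 in R 4.3.3 (mean-variance trend, two-sided, Benjamini-Hochberg over the 6230 rows whose mean reached 1 FPKM in either group, threshold 0.05). The 7 genes and the 9 lists were chosen with earlier results of these data known, and the rows were selected, so counts of calls are read against the share called among all tested rows. That share was 95.3% in either direction, and the adjusted p-values hold for these selected rows only, not for all genes.

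Named genes were the 7 members, up to 4 largest changes per list, neighbours with a tested row, and the nearest profiles; 1 gene of the Nogo list that this rule names is not reported here. Neighbours came from RefSeq (GRCh38.p14) and transcripts from GENCODE 29; 89.3% of 5996 rows of 1 symbol matched a transcript. The alternatives changed the pseudocount (0.1, 0.5), the filter (none, 5 FPKM), the scaling (quantile, median), the variance trend, a replicate block and each library in turn. Python 3.11.15 and Matplotlib 3.10.9 made summaries and plots.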

Additional observations from a re-analysis of the deposited data

How the results depend on the processing

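The median log2 change of the 7 genes was -2.65 with a pseudocount of 0.1 and -2.47 with 0.5, larger because less is added to low values, and -2.35 to -2.26 when single libraries were left out. Of 105 values of single members under the alternatives, none changed sign, and they ran from -3.05 to -2.07. The 7 genes were chosen for large decreases, so an unchanged sign was likely in advance. The filters, the block and the variance trend could not change a member's value, and those settings repeat the main estimate. With a filter at 5 FPKM, which tests fewer rows, 2 synaptic adhesion genes, 5 junction genes, 1 neuron or glia gene and 0 epithelial genes passed, and no epithelial gene was left to test. The other totals of called genes per list stayed within 1.5 times of those reported. By direction, the 5 FPKM filter also left 1 Nogo pathway gene higher (2 reported) and 2 relatives of PAQR4, ITPRIPL1 and TMEM121 lower (4 reported). Epithelial genes called lower were 2 against 1 under the replicate block and without DMSO replicate 1 or AI-10-49 replicate 3, and endothelial genes called higher were 0 against 1 without DMSO replicate 1 or 2 or AI-10-49 replicate 1 or 3. SPI1 (-0.47, not called) passed as lower without AI-10-49 replicate 2 (-0.18, limma adjusted p = 0.0268) and had a value of 0.08 under quantile normalization (0.07 with AI-10-49 replicate 2 also left out), which moved the median of all rows from -0.28 to -0.06. When the fit was blocked by replicate, 6015 rows passed the threshold, against 5939 in the main fit. The median of the 7 could not move under that block, so its value of -2.29 there is no check. Deviations of same-numbered libraries correlated at -0.15, 0.147 and 0.247 across rows, so replicate numbers were not treated as pairs. Depth is unknown, and precision rests on the spread between 3 libraries a group.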
